A study of Mus musculus with 2 samples.

Results

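The 6 GATA transcription factors and the 2 FOG cofactors were followed in mouse ureters labelled Gata6cKO, a conditional knockout of Gata6, and in control ureters. They were taken as all 11 probes on the array whose gene name is Gata1, Gata2, Gata3, Gata4, Gata5, Gata6, Zfpm1 or Zfpm2, out of 39429 probes for 29875 gene names. Gata1 to Gata6 had 1 probe each, Zfpm1 had 3 and Zfpm2 had 2. The Gata6cKO ureters carried Tbx18(cre/+);Gata6(fl/fl), with cre expressed from 1 Tbx18 copy. It acts where Tbx18 is or was expressed, mainly the mesenchyme around the ureteric epithelium. The control ureters carried Gata6(fl/?), that is at least 1 floxed Gata6 copy, and no cre is listed in their labels. All were NMRI embryos at E14.5. Per the labels, cre and the Tbx18 copy that holds it were present in every Gata6cKO RNA and in no control RNA, so their effects and the loss of Gata6 cannot be told apart.

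Each of 2 arrays compared 1 Gata6cKO with 1 control RNA in different dyes. Replicate 1 used male RNAs, with Gata6cKO in red, and replicate 2 used female RNAs, with Gata6cKO in green. Whether embryos were pooled is not stated in the labels. The p-values measure only the spread between these 2 arrays, which differ in sex, in the RNAs and in the dyes. For each gene that spread is moderated, with 11.9 degrees of freedom from all genes tested and 1 from the gene itself. SEs and p-values therefore rest mostly on the other genes. Part of that spread may be technical. The median raw spot signal was 425 and 224 in Gata6cKO and 232 and 442 in control (replicates 1 and 2), over median local backgrounds of 85, 23, 24 and 83, and the number of arrays limits the precision. All 9 ureteric mesenchyme markers and all 15 markers of urothelium and ureteric epithelium were well above background in at least 1 genotype, and of these only Upk3b, a uroplakin, was not so in Gata6cKO.

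GATA factors bind DNA at short GATA sequences through zinc fingers. Gata1, Gata2 and Gata3 are best known for their roles in blood cells, and Gata2 and Gata3 also act in the urogenital tract and in sympathetic neurons. Gata4, Gata5 and Gata6 are best known in heart, gut and other tissues of mesodermal and endodermal origin. FOG1 (gene Zfpm1) and FOG2 (gene Zfpm2) do not act by binding DNA themselves but attach to a zinc finger of GATA proteins and bring in corepressors.

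The probe sequences decide which of the values are separate measurements of a gene, so the stretches where probes of 1 gene meet are shown. The first 2 Zfpm1 probes share 55 of their 60 bases and start 5 bases apart. Their first 30 bases are given in mm9 coordinates on the plus strand, chr8:124861087-124861116 and chr8:124861092-124861121, with the bases present in both stretches in capitals.
Zfpm1 probe 1: agtgaGCCTGTGGGGCCGCACCACCAGGAC
Zfpm1 probe 2: GCCTGTGGGGCCGCACCACCAGGACccttg
The Zfpm2 probes share only 7 bases, the end of probe 1 and the start of probe 2. The last 30 bases of probe 1 (chr15:40935092-40935121, plus strand) and the first 30 of probe 2 (chr15:40935115-40935144) have these bases in capitals.
Zfpm2 probe 1: ctcatcacatgcagcagaacatgTCAAATG
Zfpm2 probe 2: TCAAATGaactaactgagttactaaagaaa
Zfpm1 probes 1 and 2 are therefore close to 1 measurement made on different spots, whereas the Zfpm2 probes read almost separate stretches. Zfpm1 probe 3 (chromosome 8, 124861353 to 124861412) overlaps neither of the others.

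Of the 7 genes that could be tested, Gata6 was the 1 that passed the test, and its probe was brighter in Gata6cKO than in control, on arrays where 4.55% of all genes tested were called. The Gata6 probe (chromosome 18, 11085039 to 11085097, mm9, plus strand) had a normalised signal of 22510 and 22460 in Gata6cKO, against 12510 and 16360 in control (replicates 1 and 2). The 2 Gata6cKO RNAs were nearly equal and lay above both control RNAs, which differed more from each other, so that the groups did not overlap. Within each genotype the 2 RNAs also differ in dye and sex. The share of all genes whose groups did not overlap was not computed. With 2 RNAs per genotype, this and like statements below only describe the values. As log2 of Gata6cKO over control, the difference was 0.85 for the males and 0.46 for the females, a mean of 0.65 ± 0.12 (moderated SE, n = 2 arrays) or 1.57-fold, with a 95% interval of 1.31-fold to 1.89-fold (limma adjusted p = 0.00612). The spots of the probe spread far less than the arrays, with an SD of 0.020 over 3 spots of replicate 1 and 0.022 over 4 spots of replicate 2. The SD of the 2 array ratios was 0.275, above the prior SD of 0.162 on which the moderated SE mostly rests. In limma fits on median-centred ratios, where 0.96% of all genes were called, Gata6 did not pass (log2 ratio 0.59, adjusted p = 0.625), nor did it when dim probes were left in (log2 ratio 0.65, adjusted p = 0.0712, 1.6% called). It passed with the dyes fitted as separate channels (adjusted p = 0.0445, 3.01% called).

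Per the scanner files the Gata6 probe starts at base 2599 of its transcript. Which exons are floxed is not given in the labels, and no exon map was used here, so the signal does not check whether Gata6 was deleted, and a transcript that lacks the floxed part could still bind the probe. Gata6os, a long non-coding RNA that RefSeq places beside Gata6, gave 6728 and 8552 in Gata6cKO against 2920 and 2855 in control. Its level was higher on both arrays, at log2 ratios of 1.20 and 1.58 (limma adjusted p = 1.98e-05). Of 19801 genes tested, 209 had a higher mean log2 ratio than Gata6, which stood at the 98.9th percentile.

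**Figure D1:**
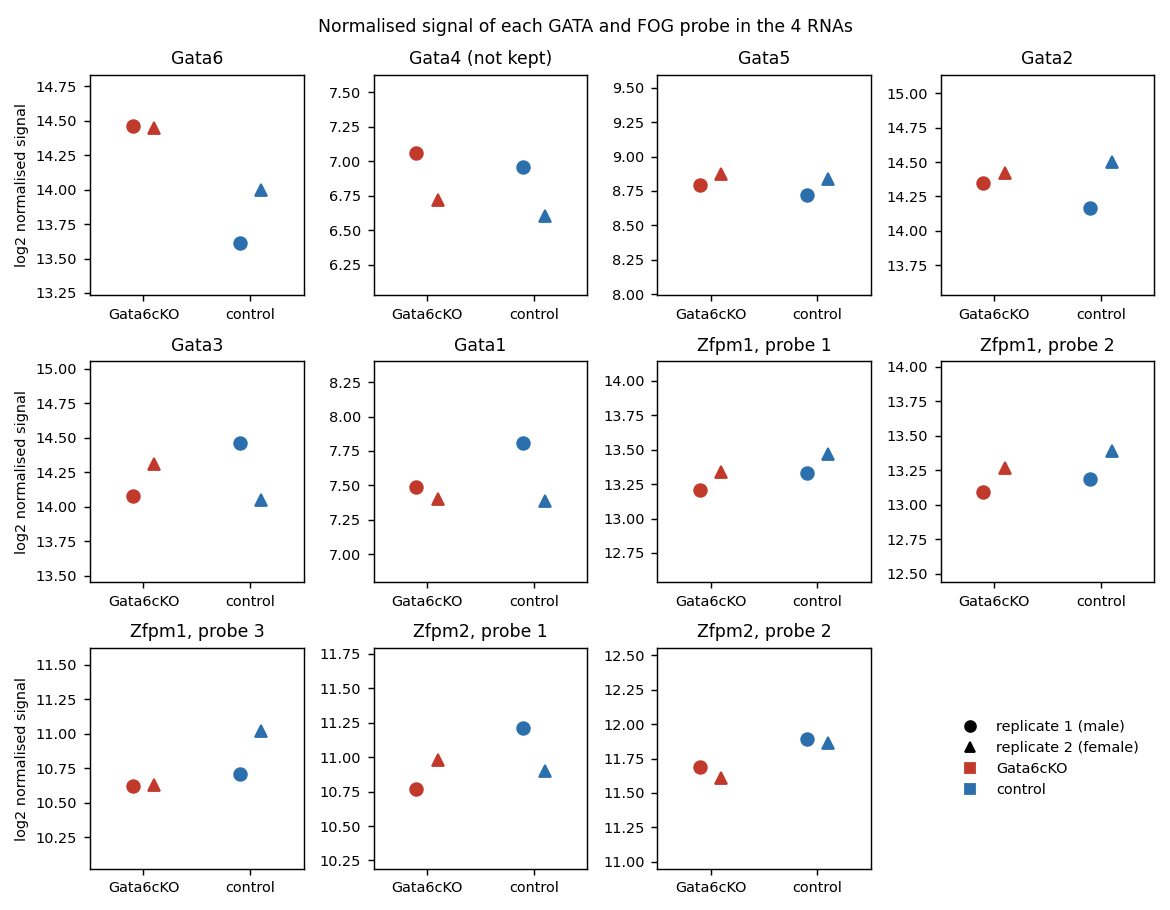
Log2 normalised signal (y axis) of the 11 GATA and FOG probes in the 4 RNAs, with Gata6cKO left of control, circles for replicate 1 and triangles for replicate 2. Each panel spans the same range of log2 units around its own centre. For Gata6 both Gata6cKO points lie above both control points.

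None of the other measured members passed the limma test, in which 4.55% of all genes tested were called, 2.2% higher and 2.35% lower. Of the 7 members that could be tested 1 was higher, none was lower and 6 did not pass, and only Gata6 had an unadjusted p under 0.05. The median log2 ratio of the 7 was -0.06, beside 0.00 over all genes tested. Of the 7, 4 had the same sign on both arrays, against 48.8% of all genes tested.

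Gata4 and Gata5 are the nearest relatives of Gata6. Gata4, a factor of the heart and gonads, was not well above background: on the male array 2 of 4 spots were so marked in each genotype, and on the female array 1 in Gata6cKO and 0 in control. Its raw signal was 184 and 59.7 in Gata6cKO and 81.9 and 126 in control, over local backgrounds of 82.8, 22.8, 24.5 and 83.0, and no fold is given. Gata5, which acts in heart and gut development, was dim but well above background in every spot. Its normalised signal was 442 and 468 in Gata6cKO and 422 and 459 in control. The groups overlapped, with a log2 ratio of 0.05 ± 0.11 and a 95% interval of 0.88-fold to 1.22-fold (limma adjusted p = 1). Gata5os, a non-coding RNA named for the opposite strand at Gata5, gave 378 and 372 in Gata6cKO and 319 and 400 in control, which also overlapped.

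Gata2 and Gata3, both factors of the blood, nervous and urogenital systems, gave strong signals in all 4 RNAs. Gata2 had 20870 and 21870 in Gata6cKO and 18480 and 23190 in control. Its mean log2 ratio was 0.05 ± 0.12 (95% interval 0.87-fold to 1.23-fold, limma adjusted p = 1), and it turned to -0.02 with median centring. Both Gata6cKO values fell between the 2 control values.

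Gata3 had 17370 and 20300 in Gata6cKO and 22580 and 16920 in control. Its log2 ratio was -0.38 for the males and 0.26 for the females, a mean of -0.06 ± 0.14 (95% interval 0.78-fold to 1.19-fold, limma adjusted p = 1). The spots of Gata3 agreed closely within each array, with an SD of 0.033 and 0.037, so its spread lay between the arrays and not among the spots. Only 1.9% of the kept probes differed more between the arrays than the Gata3 probe. Read as red over green, its log2 ratio was -0.38 and -0.26, negative on both arrays whichever genotype carried the red dye. Sex, the individual RNAs and the dye change together between the arrays and cannot be told apart.

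Gata1, the master regulator of red blood cells and megakaryocytes, was dim, with a raw signal 2.77 and 4.58 times the local background in Gata6cKO and 6.42 and 2.57 times in control. Its normalised signal was 180 and 169 in Gata6cKO and 225 and 167 in control. The male control stood above the other RNAs, and 2 of 4 spots of that array were left out as outliers. The mean log2 ratio was -0.15 ± 0.12 (95% interval 0.75-fold to 1.08-fold, limma adjusted p = 0.983).

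**Figure D2:**
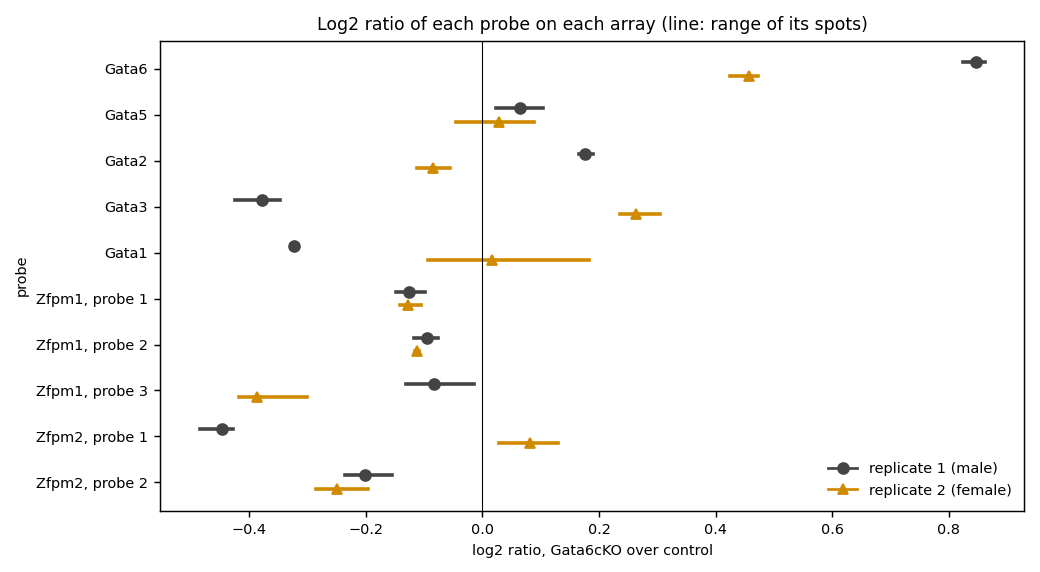
Log2 ratio of Gata6cKO over control (x axis) for the 10 probes well above background, all but that of Gata4 (y axis) on the male (circles) and the female array (triangles), with lines for the range of the spots used. Gata6 lies to the right on both arrays at 0.85 and 0.46, whereas Gata3 lies at -0.38 and 0.26.

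The FOG genes had negative mean log2 ratios and did not pass. Zfpm1, which encodes the partner of GATA1 in red cells and megakaryocytes, gave 9461 and 10400 in Gata6cKO and 10320 and 11360 in control at probe 1. Its log2 ratio was nearly equal on the arrays, -0.13 on each, a mean of -0.13 ± 0.11 (95% interval 0.78-fold to 1.08-fold, limma adjusted p = 1). Within each array the Gata6cKO RNA was the lower one, but the male control lay below the female Gata6cKO, so that the groups overlapped.

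At Zfpm1 probe 2 the log2 ratio was -0.095 and -0.11, close to probe 1, with which it shares most of its bases. At probe 3, designed to a predicted transcript variant, it was -0.08 for the males and -0.39 for the females, with 1578 and 1590 in Gata6cKO against 1673 and 2078 in control. The groups did not overlap at probe 3, but tested as a probe of its own it did not pass (limma adjusted p = 0.500 over 26200 kept probes, of which 4.66% were called).

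Zfpm2, which encodes the partner of GATA4 in heart and gonad development, had the lowest log2 ratio of the tested members. Probe 2, the brighter one, gave 3311 and 3117 in Gata6cKO against 3806 and 3706 in control. Both Gata6cKO RNAs lay below both control RNAs, at log2 ratios of -0.20 and -0.25, a mean of -0.23 ± 0.11. That is a 1.17-fold lower signal, with a 95% interval of 0.73-fold to 1.01-fold, and it did not pass (unadjusted p = 0.0616, limma adjusted p = 0.505).

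Zfpm2 probe 1 disagreed on the female array. It gave 1744 and 2027 in Gata6cKO and 2375 and 1915 in control, which overlapped, with a log2 ratio of -0.45 for the males and 0.08 for the females. Its red over green ratio was negative on both arrays, at -0.45 and -0.08. The mean of both probes was -0.20 (adjusted p = 0.558). Only 4.0% of the kept probes differed more between the arrays than Zfpm2 probe 1, against 83.2% for probe 2.

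**Figure D3:**
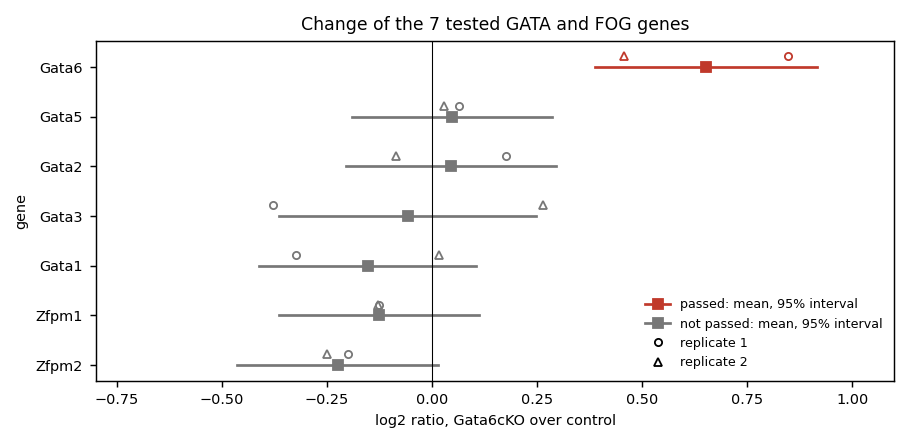
Mean log2 ratio of Gata6cKO over control (squares, x axis) with its 95% interval from limma for the 7 tested GATA and FOG genes (y axis), and the male (circles) and female (triangles) array above each. The interval of Gata6 runs from 0.39 to 0.92, and the intervals of the other 6 genes include 0.

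The genes that encode the proteins that FOG factors bring to GATA sites had log2 RNA ratios near 0. The gene lists used here and below were chosen with earlier results of these data known, so shares set beside them are no independent test. Of 15 genes of the NuRD complex and the CtBP corepressors, none passed limma in either direction, where 4.55% of all genes tested were called. A count of 0 of 15 is near that share. None had an unadjusted p under 0.05, and the log2 ratios lay between -0.10 and 0.13. Rbbp7, a histone-binding subunit of NuRD, had a log2 ratio of -0.07 and Ctbp1, a corepressor that FOG proteins bind, one of 0.13. Mta1, Mta2, Mta3, Gatad2a and Gatad2b also stand in a list of 9 genes for proteins with a GATA-type zinc finger beside the members. Of these 9, none passed limma, where 4.55% of all genes tested were called. The values reached from -0.33 for Trps1, a repressor that binds GATA sequences (limma adjusted p = 0.145, the 1 gene with an unadjusted p under 0.05, named after its value was seen), to 0.10, with Mta2, a subunit of NuRD, at 0.07 and Gatad1 at -0.01.

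Among 21 listed partner factors of GATA proteins, 17 were tested, 1 was higher and 16 did not pass, where 2.2% of all genes were higher and 2.35% lower. A count of 1 is near that share. The 1 was Hand2, which works with GATA4 in the heart and with GATA3 in sympathetic neurons and is also in the list of sympathetic markers below. It gave 1299 and 1152 in Gata6cKO against 627 and 417 in control, and its log2 ratio was 1.26 ± 0.12 (2.39-fold, limma adjusted p = 4.68e-05). Both Gata6cKO values were above both control values. Nr2f2, an orphan nuclear receptor, had a log2 ratio of 0.21 and Lmo4, a LIM-only adaptor, one of 0.01. Gfi1b, Spi1, Nkx2-5 and Tbx5 were not well above background.

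Among genes known as targets of GATA1 in red cells, those that passed were lower. Of 12 listed genes 11 were tested, 4 were lower, none was higher and 7 did not pass, with a list median of -0.34 beside 0.00 over all genes, of which 2.35% were lower. Slc4a1, the anion exchanger of red cells, gave 1412 and 1545 in Gata6cKO against 2253 and 2047 in control, a log2 ratio of -0.54 ± 0.12 (limma adjusted p = 0.0150). Alas2, the first enzyme of erythroid haem synthesis, Hbb-b1, a beta globin, and Ahsp, which binds alpha globin, were lower by log2 ratios of -0.49, -0.47 and -0.46. The alpha globin Hba-a1 (-0.40, limma adjusted p = 0.0796) and Hemgn, a nuclear protein of blood cells (0.10), did not pass. The value of Hemgn is a mean of opposite log2 ratios, 0.71 for the males and -0.52 for the females. Near-identical globin copies leave the globin values uncertain.

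Limma called 0 genes of this list on median-centred ratios, 0 when dim probes were left in and 1 with separate channels, and 7 in the deposited series values. Over all genes 0.96%, 1.6%, 3.01% and 7.41% were called in these settings. The list shares 10 genes with the red blood cell markers. The summed signal of the 10 markers was 249588 and 207220 in Gata6cKO against 291743 and 297528 in control, with 4 of the 10 lower and all 10 tested. Most of that sum is Hba-a1, and without it the other 9 summed to 55005 and 50303 in Gata6cKO against 58760 and 68616 in control. The 9 include Hemgn, at 24150 and 17060 in Gata6cKO against 14730 and 24410 in control. These sums add different probes and describe no single gene, and their part in the result was not tested. In a bulk tissue, fewer cells of a type and less RNA per cell cannot be told apart.

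Among 9 genes linked to Gata2 and Gata3, 3 were higher, 1 was lower and 5 did not pass, with a list median of 0.01. Over all genes tested 2.2% were higher and 2.35% lower. Dbh, the enzyme that makes noradrenaline, gave 5728 and 4926 in Gata6cKO against 2352 and 1966 in control (log2 ratio 1.30 ± 0.11, limma adjusted p = 1.40e-05). Th, the first enzyme of that pathway, was higher by 0.62 ± 0.12 and Ret, the receptor of GDNF ligands, by 0.64 ± 0.11. Pparg, a nuclear receptor of fat cells and urothelium that GATA2 and GATA3 repress in fat cell precursors, was lower, with 4666 and 4535 in Gata6cKO against 6984 and 6763 in control (-0.58 ± 0.11, limma adjusted p = 0.00652). Kit, a receptor of blood progenitors and mast cells, had a log2 ratio of 0.01 and Kdr, an endothelial receptor, one of -0.19. With median centring only Dbh of these 4 still passed, and with dim probes left in Th did not.

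Dbh, Th and Ret, like Hand2, also stand among the 12 markers of sympathetic neurons, all 12 of which were higher, where 2.2% of all genes were higher. Both this list and that of urothelium below were chosen with earlier results of these data known, so these shares are no independent test. Of the 12, 9 were higher with median centring (0.455% of all genes) and 10 when dim probes were left in (0.83%). Their summed signal was 33134 and 32272 in Gata6cKO against 15779 and 12658 in control. Of the 15 markers of urothelium and ureteric epithelium, 9 were lower and 6 did not pass, where 2.35% of all genes were lower. With median centring 7 were lower (0.505% of all genes) and with dim probes left in 7 (0.767%). Upk3b, 1 of the 9, passed the filter only through control, where it was brighter, so its call gives no separate support. With only probes well above background in every spot, 14 were tested and 8 were lower. The summed signal of the 15 was 208798 and 188896 in Gata6cKO against 273294 and 257009 in control. Without the brightest, the keratin Krt18, it was 113309 and 109472 in Gata6cKO against 183064 and 158506 in control. The uroplakins Upk1a, Upk1b, Upk2 and Upk3a, membrane proteins of the urothelium, were lower by log2 ratios between -1.98 and -1.26. The 6 that did not pass, Krt5, Krt8, Krt18, Trp63, Epcam and Elf3, had log2 ratios between -0.41 and -0.11 at the brightest kept probe. The value of Trp63 depended on the probe. It was -0.15 at the brightest kept probe, but -0.7 with the mean of the gene's kept probes, where it passed as lower. In that setting 10 of the 15 were lower, where 2.42% of all genes were lower. The part of these cell types in the values of the Gata2 and Gata3 targets, and of Gata2 and Gata3 themselves, was not tested.

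Among 20 genes linked to Gata4, Gata5 or Gata6 in other tissues, 15 were tested, with a list median of 0.05. Of these, 3 were higher, 1 was lower and 11 did not pass, where 2.2% of all genes were higher and 2.35% lower. With only probes well above background in every spot, 14 were tested, 2 were higher and 1 was lower. Myocd, the coactivator of smooth muscle genes, gave 570 and 627 in Gata6cKO against 1280 and 1764 in control (-1.33 ± 0.12, limma adjusted p = 2.20e-05). Plxna2, a semaphorin receptor, was higher, with 10700 and 11540 in Gata6cKO against 7595 and 8620 in control (0.46 ± 0.11, limma adjusted p = 0.0301). The heart myosin Myh6 was also higher at a dim signal (0.47 ± 0.11). Foxa2, an endoderm factor, was well above background in all spots of Gata6cKO and in 0 spots of control, so it had to be higher to be tested. It was at least 1.18-fold higher in Gata6cKO, against the higher of the control signal and the dimmest probe signal well above background (limma adjusted p = 0.0481). Bmp4, a growth factor of the ureteric mesenchyme, and Sema3c, a ligand of plexins, had log2 ratios of 0.28 and 0.05 and did not pass. Limma called 0 genes of this list higher on median-centred ratios, 0 when dim probes were left in and 0 with separate channels. Over all genes 0.455%, 0.83% and 1.52% were higher in these settings. Myocd is also 1 of the 8 tested smooth muscle markers, of which 4 were lower, where 2.35% of all genes were lower. The summed signal of these markers was 35198 and 28728 in Gata6cKO against 47149 and 36920 in control. Their part in the value of Myocd was not tested.

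**Figure D4:**
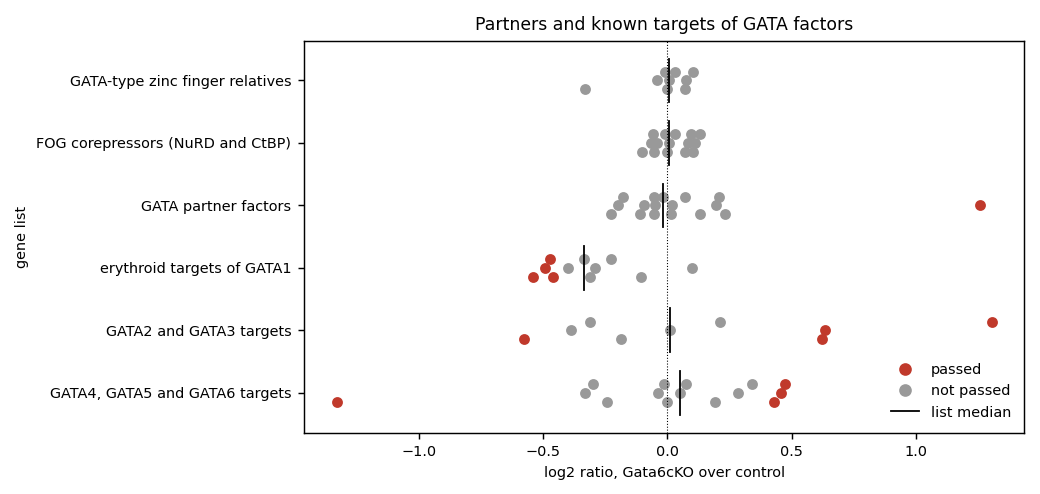
Log2 ratio of Gata6cKO over control (x axis) for the tested genes of 6 lists of GATA relatives, corepressors, partners and targets (y axis), with genes that passed in red and the list median as a bar. The corepressors cluster between -0.10 and 0.13, and the erythroid targets have a median of -0.34.

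Over the 2 arrays, the named genes whose log2 ratios lay nearest to those of Gata6 were Tnnc2, a troponin of fast skeletal muscle (0.84 and 0.46), Ldb2, a LIM domain-binding adaptor (0.81 and 0.44), Kcnc2, a potassium channel (0.86 and 0.51), Glrb, a glycine receptor subunit (0.89 and 0.41), and B4galnt2, a glycosyltransferase (0.80 and 0.51). The Euclidean distances reached from 0.0112 for Tnnc2 to 0.0702 for B4galnt2. With 2 values per gene this likeness describes only size and the order of the arrays.

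RefSeq promoter windows (GRCm38.p6, 250 bases before to 50 after the start) were at hand for 5 of the 8 genes, Gata1, Gata2, Gata3, Gata5 and Zfpm1. They were searched on both strands for the GATA site, spelled out as AGATAA or AGATAG, and with a first T as TGATAA or TGATAG. Among these windows the site was found only in that of Gata3, as TGATAG at bases 287 to 292. The window (chr2:9878551-9878850, minus strand) is shown as the 1 member promoter with a site, which is in capitals.
Gata3 promoter: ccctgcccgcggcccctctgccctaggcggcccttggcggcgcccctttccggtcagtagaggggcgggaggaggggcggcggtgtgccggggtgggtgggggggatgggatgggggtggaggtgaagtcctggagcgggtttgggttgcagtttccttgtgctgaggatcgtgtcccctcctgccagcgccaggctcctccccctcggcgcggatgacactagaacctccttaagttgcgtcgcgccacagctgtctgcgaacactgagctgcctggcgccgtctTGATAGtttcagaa
Of all 32851 windows, 29.8% hold the site. Among tested genes with a window the share was 23.4%, and it was 28.8% of 302 genes higher and 25.8% of 306 genes lower in Gata6cKO. These shares are a description of letters in a short window and no site was tested for binding.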

How the data were processed

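RNA of 2 Gata6cKO and 2 control ureter samples was measured on 2 two-colour Agilent arrays. The deposited scanner files, made with Agilent Feature Extraction 10.7.3.1 per the submitters' processing notes, give for each spot a raw intensity and a local background intensity in each dye. Per the file headers they also hold a processed intensity that the authors' scanner software detrended and dye-corrected, with its log10 ratio. A separate deposited table of values holds a score, which comparison with the scanner files showed to be a signed fold of Gata6cKO over control (r = 0.985 and 0.980 on the log2 scale). There were 0 unused per-sample columns.

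In R 4.3.3 with limma 3.58.1, raw intensities were background-corrected (normexp, offset 50) and loess-normalised within each array, giving outliers and controls a weight of 0. The 4 spots of a probe were averaged and the sign was turned on the dye-swapped array. A probe was kept with at least 3 spots well above background in 1 genotype on both arrays (26200 of 39429), and the brightest kept probe stood for a gene. Normalised signals per RNA are from the same values after Aquantile scaling. Ratios were fitted with lmFit and eBayes (1 residual and 11.9 prior degrees of freedom, prior SD 0.162), two-sided, Benjamini-Hochberg over 19801 genes, threshold 0.05. The fit was tested on simulated data, which does not establish the share of false calls among the genes called here. Alternatives were the processed intensities, no background correction, offset 16, median centring, no or a stricter filter, the mean of a gene's probes, an intensity trend, separate channels, the deposited series table, and each array left out. No spot was saturated (0). Symbols were updated with RefSeq (GRCm38.p6, 28328 probes by accession), and probe coordinates are mm9 per the file headers.

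Named genes were all members and the 5 genes nearest to Gata6. From each list of GATA relatives, corepressors, partners and targets, the genes that passed and up to 2 of the brightest others were named. Markers of cell types that passed were not all named. Trps1, Mta1, Mta3, Gatad2a, Gatad2b, Gata6os and Gata5os were added outside this rule with their values known. So were the uroplakins, Krt5, Krt8, Krt18, Trp63, Epcam and Elf3. The members, lists and tests were chosen with earlier results of these data known. Lists of glia, megakaryocytes and mast cells, endothelium, smooth muscle, mesothelium and heart muscle were counted beside those of the report: 1, 0, 0, 0, 1 and 1 genes were higher and 1, 0, 1, 4, 3 and 0 lower, of 6, 6, 8, 8, 6 and 2 tested. Over all genes tested 2.2% were higher and 2.35% lower. Upk3b is 1 of the 3 lower mesothelium markers, and with the stricter filter 2 of 5 were lower. In the ureteric mesenchyme list 1 was higher and 0 lower of 9.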

Additional observations from a re-analysis of the deposited data

Results flagged for a closer look

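The log2 ratios of Gata1, Gata2 and Gata3 had opposite signs in males and females. As log2 of Gata6cKO over control, Gata1 had -0.32 in males and 0.02 in females, Gata2 had 0.18 and -0.08, and Gata3 had -0.38 and 0.26. For Gata1 the female spots spread from -0.09 to 0.18, and the deposited series values gave -0.57 and -0.01, the same sign. Each array holds 1 sample of each genotype, so the difference between the sexes was not tested, and the dyes were exchanged between the same arrays.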

How the results depend on the processing

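The call of Gata6 was kept under 8 of 10 alternative settings, at log2 ratios of 0.64 to 0.65, and none of the other tested members passed under any of the 10. With median centring 0 members passed limma (1 at an unadjusted p under 0.05), with Gata6 at a log2 ratio of 0.59, and with no filter on dim probes 0 passed, with Gata6 at 0.65 (2 at an unadjusted p under 0.05, Gata6 and Zfpm2). The cause was not tested. Among all genes tested the count of calls was 901, and it was 190 with median centring, 477 with no filter, 597 with separate channels and no replicate block, and 1467 with the deposited series values. The other 6 settings gave between 849 and 1191. Each array is its own pair of samples, and without that pairing the adjusted p of Gata6 was 0.0445. The direction of Gata2 turned with median centring, at a log2 ratio of -0.018. With 1 array left out, the log2 ratio of Gata6 was 0.46 to 0.85, with no test possible on 1 array. Gata4 and Gata1 are limited by signal over background.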
